A study of Mus musculus with 46 samples.

Results

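Trps1, Id2, Mycn, Tox3, Prdm8, Rara, Hopx and Sox2 encode proteins that control transcription, and are described here across 7 types of cortical GABAergic neuron. They are 8 of the 23335 genes in the deposited count table, and were picked because their levels separate single types in these same data. Their levels are therefore given as a description, with no test. The picking had no numerical threshold, and all 8 had counts and are accounted for.

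Id2 is a helix-loop-helix protein without a DNA-binding region that captures E proteins and so keeps them from DNA. Mycn is a helix-loop-helix protein that pairs with Max and binds the E-box, a short palindromic DNA motif. Trps1 is a repressor with a GATA-type zinc finger, and Prdm8 is a zinc-finger protein of the Prdm family of histone methyltransferase relatives. Tox3 and Sox2 bind DNA through an HMG box, and Sox2 is best known as a factor of neural stem cells. Rara is a nuclear receptor for retinoic acid. Hopx carries a homeodomain that does not bind DNA and works through partners such as Srf and histone deacetylases. Interneurons of cortex arise in the ganglionic eminences of the embryo, and regulators first used there are in part kept in the adult cell.

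RNA from single neurons of the frontal cortex of mice was sequenced as 46 libraries, each of which pooled 7 to 16 cells under cell barcodes, with 584 cells in all. Martinotti cells (62 cells, 4 libraries) came from Sst-Flp;CR-Cre;Ai65 females aged 35 days, and interneuron-selective cells (63 cells, 4 libraries) from Vip-Flp;CR-Cre;Ai65 females aged 32 days. CCK basket cells (64 cells, 4 libraries) came from Vip-Flp;CCK-Cre;Ai65 males aged 39 to 40 days. PV basket cells (127 cells, 16 libraries) came from Pv-iresCre;Ai14 mice of both sexes aged 58 to 83 days, from all layers. Chandelier cells came from Nkx2.1-CreER;Ai14 mice, in which tamoxifen given on embryonic day 17.5 switches on the reporter. Those at the upper border of the superficial layers (80 cells, 5 libraries, 1 of them labelled Ai15) were from females aged 40 to 58 days, and those of deep layers (52 cells, 4 libraries) from males aged 34 days. Long-projecting cells (136 cells, 9 libraries) came from Sst-Flp;Nos1-Cre;Ai65 males aged 28 to 29 days. All groups carry a recombinase driver and a red reporter, crosses with Flp and Cre mark cells that have used both driver genes, and so each type is defined by its cross and dissection. The labels state no other treatment.

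A library held 530927 to 4568242 counts, and a cell a median of 98298 counts. Levels are given in CPM, the counts of a gene scaled to 1000000 counts of a library or replicate. A replicate is a labelled animal, except that PV basket animals 7 and 8, and 9 and 10, were summed in pairs. In 8 pairs of their libraries the mean squared difference was at most 1.93 times the variance expected from sampling. It was at least 5.77 times that variance in the other pairs of libraries of a type. The labels give upper chandelier animal 14 ages of both 40 and 58 days, so that replicate may be more than 1 animal. This gave 16 replicates, 4 of them long-projecting and 2 from every other type. Age, sex and flow cell follow type, so batch and type cannot be told apart, except that Martinotti shared a flow cell with interneuron-selective cells, as did long-projecting with upper chandelier cells. All libraries drew on 16 cell barcodes, and 963 of 1035 pairs of libraries had at least 1 barcode in common. All 4 marker genes of GABAergic neurons had counts in every type, with summed levels of 1698 to 7281 CPM over the libraries, and summed levels of 6 pyramidal markers stayed at or under 103 CPM.

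Before the results, 4 libraries need naming. Deep chandelier library 4 held 1918 CPM of Vip, a peptide gene of another type, against at most 2.75 CPM in the other 3. Upper chandelier library 1 held 374 CPM of Vip, against 0 in the other 4. Summed oligodendrocyte markers reached 2682 CPM in interneuron-selective library 3 and 3904 CPM in long-projecting library 2, against medians of 119 and 116 CPM over the libraries of these types. Type means that move by over 1.5 times without these 4 libraries are given with and without them where the text prints them.

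Id2, Mycn and their partners act through the E-box. For 5 of the genes, stretches of genome just upstream of a RefSeq start are therefore shown. They are RefSeq promoter windows of GRCm38.p6, which held entries for 7 of the 8 genes. Each is the 250 bases before a RefSeq start, printed from 5′ to 3′ on the gene's strand, without bases that GENCODE places in an exon of the same gene. Capitals mark CANNTG, the general E-box, searched on both strands. The stretch of Id2 lies at chr12:25096254-25096342 and that of Mycn at chr12:12941915-12942086, both on the minus strand. That of Prdm8 lies at chr5:98180619-98180868 on the plus strand. GENCODE has starts farther upstream for Id2 and Prdm8, so their stretches lie inside the gene bodies (chr12:25093799-25097140 and chr5:98167198-98188991). The stretch of Hopx lies at chr5:77115124-77115373 on the minus strand, and that of Sox2 at chr3:34649745-34649994 on the plus strand.
Id2: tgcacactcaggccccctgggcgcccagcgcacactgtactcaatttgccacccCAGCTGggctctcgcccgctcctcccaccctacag
Mycn: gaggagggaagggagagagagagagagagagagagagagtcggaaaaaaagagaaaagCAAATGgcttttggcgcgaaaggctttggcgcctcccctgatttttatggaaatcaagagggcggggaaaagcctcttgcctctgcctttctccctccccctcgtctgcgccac
Prdm8: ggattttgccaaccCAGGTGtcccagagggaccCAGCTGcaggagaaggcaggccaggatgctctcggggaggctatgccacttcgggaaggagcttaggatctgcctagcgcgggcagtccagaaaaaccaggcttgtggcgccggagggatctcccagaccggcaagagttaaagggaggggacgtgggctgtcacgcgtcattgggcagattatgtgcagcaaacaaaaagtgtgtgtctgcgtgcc
Hopx: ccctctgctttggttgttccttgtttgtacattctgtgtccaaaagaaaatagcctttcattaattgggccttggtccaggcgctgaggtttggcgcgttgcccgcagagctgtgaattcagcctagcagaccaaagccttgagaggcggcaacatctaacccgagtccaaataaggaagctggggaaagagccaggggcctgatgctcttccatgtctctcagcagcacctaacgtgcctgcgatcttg
Sox2: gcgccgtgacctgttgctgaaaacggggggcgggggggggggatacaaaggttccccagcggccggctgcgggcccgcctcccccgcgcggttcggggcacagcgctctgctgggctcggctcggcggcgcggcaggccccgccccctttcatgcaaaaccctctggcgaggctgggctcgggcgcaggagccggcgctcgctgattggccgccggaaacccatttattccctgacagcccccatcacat
In the full windows CANNTG occurred 1 time for Id2 and Mycn and 2 times for Prdm8, and it was not found in the windows of Hopx and Sox2 shown. Of all 32851 windows in the table, 66.2% hold it, so these counts are those of a common motif. The Myc and Max form CACGTG, which is itself a CANNTG, is in 6.02% of all windows and in none of the 5 shown. Hopx has a second window in the table, at chr5:77095268-77095517, which holds 1 CACGTG, and 1 of the 4 windows of Rara holds it too. The full windows of Sox2 and Id2 hold 27 and 18 CpG dinucleotides, against a median of 6 over all windows. A match is a description of letters and not a bound site.

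Id2 was highest in deep chandelier cells and was not counted in a single Martinotti cell. The 4 deep chandelier libraries held 2053, 1483, 805 and 23.6 CPM. Libraries 1 to 3 lay above all 42 libraries of other types, whose highest was 354 CPM, whereas library 4, the one with Vip, lay below every CCK basket and upper chandelier library. The type mean was 1141 ± 901 CPM (SD, n = 2), and 1292 ± 688 CPM (SD, n = 2) without the 4 libraries named above. CCK basket libraries followed with 166, 354, 78.1 and 169 CPM, a mean of 182 ± 80.1 CPM (SD, n = 2). Upper chandelier libraries held 156, 49.2, 42.5, 287 and 100 CPM, a mean of 114 ± 48.2 CPM (SD, n = 2), and the ranges of these 2 types overlapped. Deep chandelier cells were thus 6.28 times the next type, and their 2 animals, at 1778 and 504 CPM, both lay above the CCK basket animals. In interneuron-selective cells the mean was 23.1 ± 9.14 CPM (SD, n = 2), or 14.5 ± 2.95 CPM without library 3, in PV basket cells 10.5 ± 6.36 CPM (SD, n = 2) and in long-projecting cells 4.99 ± 4.71 CPM (SD, n = 4). All 4 Martinotti libraries were at 0, where 3 counts over the type would be 0.362 CPM. That type shares the Sst driver with long-projecting cells, of which 5 of 9 libraries had counts of Id2.

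Mycn was highest in deep chandelier cells too, second in upper chandelier cells, and had no count in CCK basket cells. Deep chandelier libraries held 28.6, 241, 192 and 0 CPM, and upper chandelier libraries 23.9, 63.7, 45.8, 63.9 and 16.5 CPM. Replicates of these 2 types stood apart, at means of 125 ± 9.36 and 45.8 ± 8.91 CPM (SD, n = 2 each), but their libraries overlapped, since deep library 1 lay within the upper range and deep library 4 was at 0. Without the 4 named libraries the means were 162 ± 43.0 and 51.6 ± 17.1 CPM (SD, n = 2 each). Martinotti, PV basket, interneuron-selective and long-projecting cells followed at means of 9.55, 9.42, 8.22 and 6.27 CPM with overlapping replicates between neighbours. Without the named library 3 the interneuron-selective mean was 17.6 ± 22.6 CPM (SD, n = 2), which would place it above Martinotti cells. All 4 CCK basket libraries were at 0, and against 3 counts over that type, 0.269 CPM, the next lowest type was at least 23.3-fold higher. This lower end is what separates 1 type. On the log2(CPM + 1) scale the gap was 2.86, and it fell to 1.41 without interneuron-selective animal 4.

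Trps1 marked both chandelier types. Upper chandelier libraries held 1085, 934, 922, 968 and 1461 CPM, and deep chandelier libraries 813, 373, 857 and 695 CPM. All 5 upper libraries lay above all 4 deep ones, and both types lay above every other library, of which the highest was a PV basket library at 275 CPM. The means were 1071 ± 132 and 697 ± 137 CPM (SD, n = 2 each), a ratio of 1.54. In PV basket cells, libraries ranged from 60.9 to 275 CPM with a median of 106 CPM. CCK basket, Martinotti, long-projecting and interneuron-selective cells followed at 35.2 ± 7.90, 30.4 ± 36.2 (SD, n = 2 each), 28.3 ± 12.3 (SD, n = 4) and 18.3 ± 11.7 CPM (SD, n = 2), with overlapping replicates. Trps1 was counted in every one of the 80 upper, 52 deep and 127 PV basket cells. The order of the chandelier types is less firm than their distance from the rest, because the log2 gap of 0.62 between them became 0.32 with TMM scaling and 0.21 with the size factors of DESeq2.

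Prdm8 was highest in interneuron-selective cells, second in CCK basket cells, and nearly absent from chandelier cells. Interneuron-selective libraries held 137, 285, 0.916 and 258 CPM. Libraries 1, 2 and 4 exceeded all 42 libraries of other types, and library 3, the one with oligodendrocyte RNA, had a single count. The mean was 165 ± 78.1 CPM (SD, n = 2) with all libraries and 239 ± 26.5 CPM (SD, n = 2) without the 4 named. CCK basket libraries held 113, 2.46, 35.6 and 29.4 CPM, a mean of 51.7 ± 27.3 CPM (SD, n = 2), so both types labelled with Vip-Flp carried it. The ratio between them was 3.19. The 16 PV basket libraries ranged from 0 to 68.3 CPM with a median of 8.55 CPM. In 7 of 9 long-projecting and 3 of 4 Martinotti libraries Prdm8 was at 0, and the 4 deep chandelier libraries had none, with 0.404 CPM as the level of 3 counts. Upper chandelier cells had 1 count in all. An antisense gene, A730035I17Rik, overlaps exons of Prdm8 and is not a row of the table, so reads of both cannot be told apart if strand was not used in counting.

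**Figure D1:**
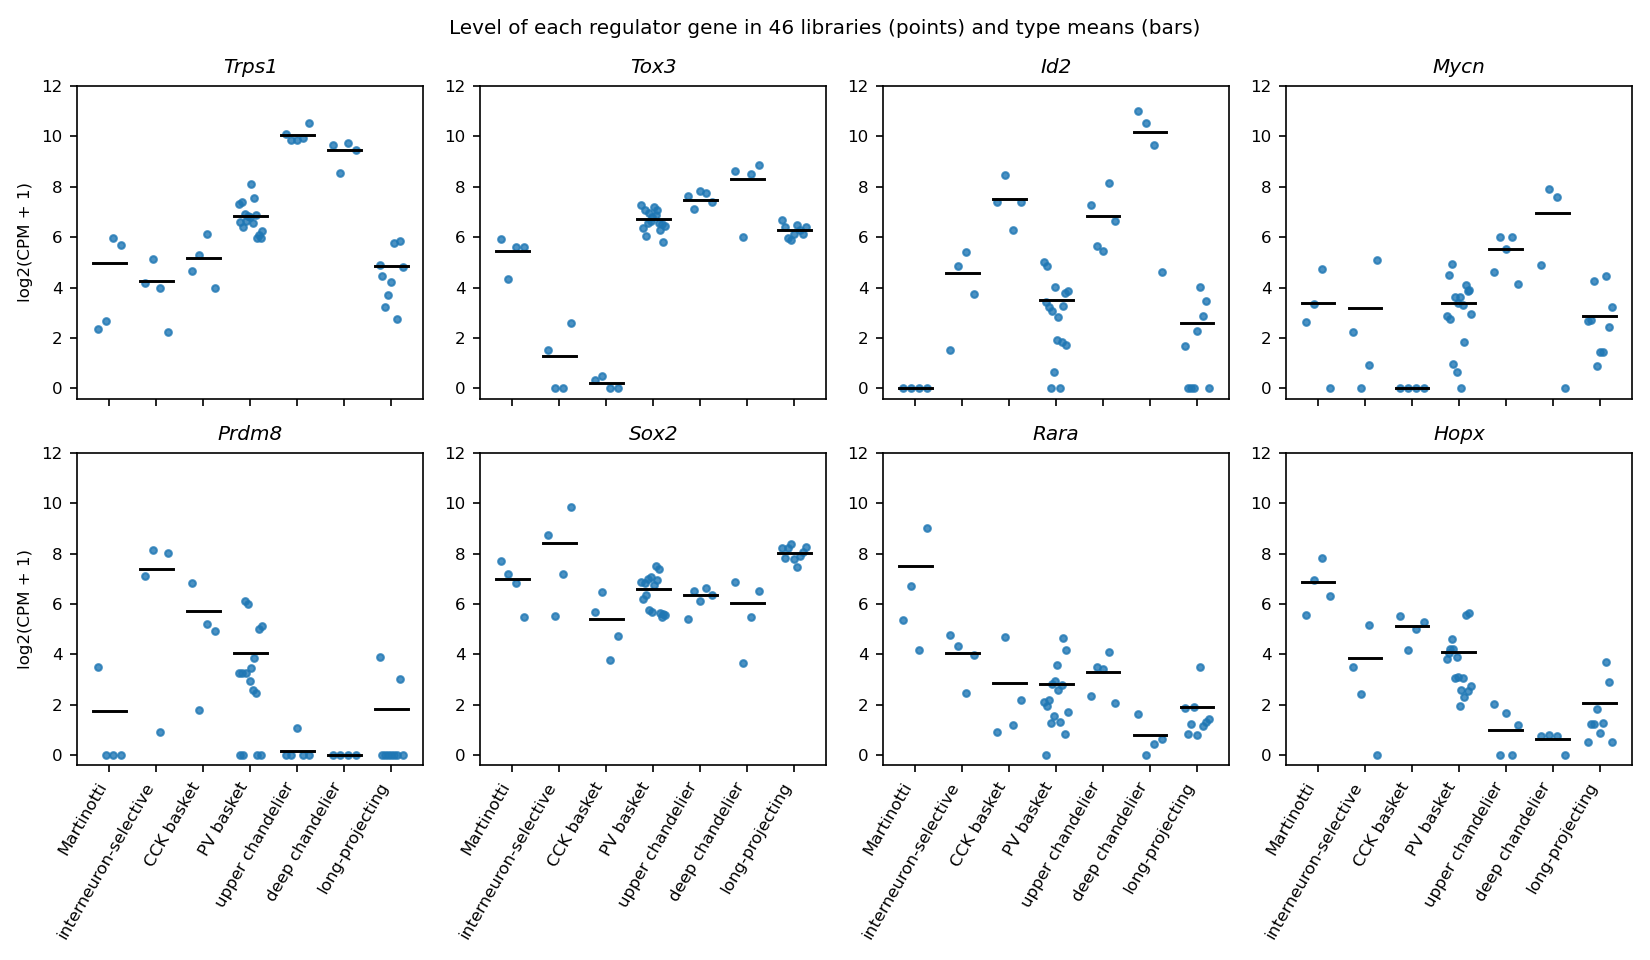
Levels of the 8 genes in 46 libraries by type. Each panel is 1 gene, with log2(CPM + 1) on the vertical axis; points are libraries and bars are means over replicates, put on the same scale. Trps1 sits highest in both chandelier types, Tox3 and Mycn are at or near 0 in CCK basket cells, Id2 is at 0 in all 4 Martinotti libraries, and single libraries (deep chandelier 4 for Id2 and Mycn, interneuron-selective 3 for Prdm8) fall far from their type.

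The type means of Tox3 fell in steps, and the gene was all but missing from a pair of types. Its levels followed the order deep chandelier 320 ± 118, upper chandelier 178 ± 31.3, PV basket 104 ± 16.4 (SD, n = 2 each), long-projecting 78.0 ± 11.6 (SD, n = 4) and Martinotti 43.3 ± 6.72 CPM (SD, n = 2), and replicates of neighbours in this order did not overlap. Interneuron-selective libraries held 1.88, 0, 0 and 4.98 CPM, and CCK basket libraries 0.254, 0.411, 0 and 0 CPM. These 2 types, both from Vip-Flp crosses, had 5 and 2 counts in all, at or near the level that 3 counts give. In the other 5 types the lowest library was a Martinotti library at 19.3 CPM. The 4 deep chandelier libraries held 399, 63.6, 364 and 467 CPM. Library 2 thus lay within the range of PV basket cells (54.8 to 153 CPM). Among these 5 types the libraries of all neighbours in the order overlapped. The long-projecting libraries, at 57.6 to 103 CPM, lay wholly within the PV basket range. Which of the 2 lowest types is the lower one rests on few counts, and their log2 gap of 1.09 was 2.61 with a pseudocount of 0.1 and 0.18 with one of 10.

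Sox2 was counted in all 46 libraries and separated types least. Interneuron-selective libraries held 424, 44.6, 145 and 916 CPM, a mean of 342 ± 184 CPM (SD, n = 2), from within the range of CCK basket libraries to above every other library. Without library 3 the mean was 564 ± 498 CPM (SD, n = 2). Its place as the highest type rested on animal 4 at 472 CPM, since animal 3, at 212 CPM, lay below the long-projecting mean. The 9 long-projecting libraries were tighter, with a lowest of 175, a median of 264 and a highest of 337 CPM. Their mean was 258 ± 36.9 CPM (SD, n = 4), and their replicates overlapped those of interneuron-selective cells and lay above those of Martinotti cells. Martinotti libraries held 210, 145, 114 and 44.2 CPM. PV basket, upper chandelier and deep chandelier means were 94.8 ± 3.50, 80.1 ± 5.69 and 64.0 ± 3.13 CPM (SD, n = 2 each). CCK basket libraries held 50.5, 87.1, 12.9 and 25.7 CPM, the lowest mean at 42.0 ± 31.8 CPM (SD, n = 2). That rank rested on 1 animal: animal 6 was at 19.5 CPM and animal 5 at 64.4 CPM, and without animal 6 the log2 gap to the next type of 0.60 became -0.010. Summed astrocyte markers, whose cells also use Sox2, ranged from 143 to 353 CPM in interneuron-selective and 32.2 to 165 CPM in long-projecting libraries. These sums were 8.93 to 91.5 CPM in Martinotti, 44.9 to 282 CPM in PV basket and 45.6 to 164 CPM in upper chandelier libraries. They were 71.0 to 168 CPM in CCK basket and 3.10 to 25.3 CPM in deep chandelier libraries. Their part in the levels of Sox2 was not tested.

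Sox2 is a gene without introns that lies inside an intron of Sox2ot, a long noncoding gene on the same strand (Sox2 at chr3:34650405-34652461, GRCm38). Exons of the pair do not overlap. The 3 highest types were the same for both, with Sox2ot in interneuron-selective cells averaging 572 ± 176 CPM (SD, n = 2), at 566 ± 59.3 CPM (SD, n = 4) in long-projecting cells, at 262 ± 62.5 CPM (SD, n = 2) in Martinotti cells, and at 95.1 ± 26.2 CPM (SD, n = 2) in deep chandelier cells. CCK basket cells stood in another place, since Sox2ot reached 193 ± 110 CPM (SD, n = 2) where Sox2 was lowest. The ratio of Sox2ot to Sox2 was 6.62, 1.94, 15.3 and 1.48 in the 4 CCK basket libraries, so libraries 1 and 3 set it apart, and its median ran from 1.33 in PV basket to 2.28 in Martinotti cells among the other types. Over 46 libraries r was 0.854 on the log2(CPM + 1) scale and over 16 replicates it was 0.847, values that share library, depth and type. Whether reads of unspliced Sox2ot were counted for Sox2 was not tested.

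**Figure D2:**
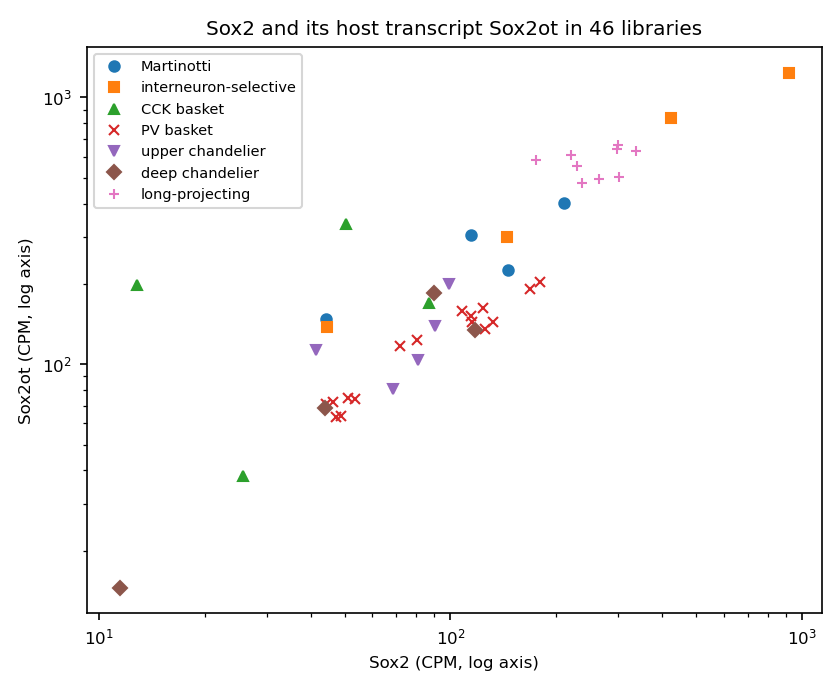
Sox2 (horizontal) and Sox2ot (vertical) in 46 libraries, both in CPM on log axes, with a symbol for each type. The 9 long-projecting libraries form a tight group at 175 to 337 CPM of Sox2, interneuron-selective libraries spread from 44.6 to 916 CPM, and 1 CCK basket library has 12.9 CPM of Sox2 beside 197 CPM of Sox2ot.

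Rara was highest in Martinotti cells, by way of uneven libraries. They held 40.8, 103, 17.0 and 516 CPM. Libraries 1, 2 and 4 lay above all 42 libraries of other types, whose highest was 26.4 CPM, and library 3 lay among them. The 2 animals were at 74.0 and 290 CPM, a mean of 182 ± 153 CPM (SD, n = 2) and 11.7 times the next type. Without library 4 the log2 gap fell from 3.46 to 1.48. Interneuron-selective, upper chandelier, CCK basket and PV basket cells had means of 15.6, 8.81, 6.25 and 6.19 CPM, each overlapping its neighbour, then long-projecting cells 2.81 CPM and deep chandelier cells 0.766 CPM. Counts of Rara were not whole in 61 of the 244 cells that had any, and these cells held 14.1% of its counts, so some of its reads were shared with other genes and its level is uncertain to that extent.

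Hopx was also highest in Martinotti cells, and more evenly. The 4 libraries held 46.8, 122, 224 and 78.0 CPM. Libraries 2, 3 and 4 lay above every library of another type, and library 1 was passed only by a single PV basket library at 49.0 CPM. The mean was 116 ± 40.1 CPM (SD, n = 2), 3.37 times that of CCK basket cells, whose libraries held 45.1, 16.8, 30.9 and 37.6 CPM. PV basket and interneuron-selective cells had means of 16.3 and 13.6 CPM with overlapping replicates, and the latter was 3.53 ± 4.99 CPM (SD, n = 2) without the named library 3, which held 34.8 CPM. Long-projecting cells were at 3.19 CPM, upper chandelier cells at 0.988 CPM with 7 counts in all (0.534 CPM without library 1), and deep chandelier cells at 0.581 CPM with 4. Long-projecting cells, the other type from Sst-Flp, thus had neither Rara nor Hopx near the Martinotti level. Hopx had counts that were not whole in 6 of 272 cells, with 2.77% of its counts, and the antisense gene Hopxos overlaps its exons and is not a row of the table.

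Cells of 1 library resembled each other far more than cells of different libraries of the same type. For 45 pairs of gene and type with at least 20 counts, the squared spread of cells within a library was 0.495 to 5.43 times counting error, with a median of 1.16. Between libraries of a type it was 4.10 to 1272 times, with a median of 21.5, and it was the larger of both in 45 of 45 pairs. For example, Id2 was counted in 14 of 14, 14 of 14, 16 of 16 and 6 of 8 cells of the deep chandelier libraries. Prdm8 was counted in 13 of 15, 16 of 16, 1 of 16 and 16 of 16 cells of the interneuron-selective libraries. Mycn was counted in 9 of 14, 14 of 14, 16 of 16 and 0 of 8 deep chandelier cells. The levels thus varied by library, and cells were nowhere used as replicates.

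**Figure D3:**
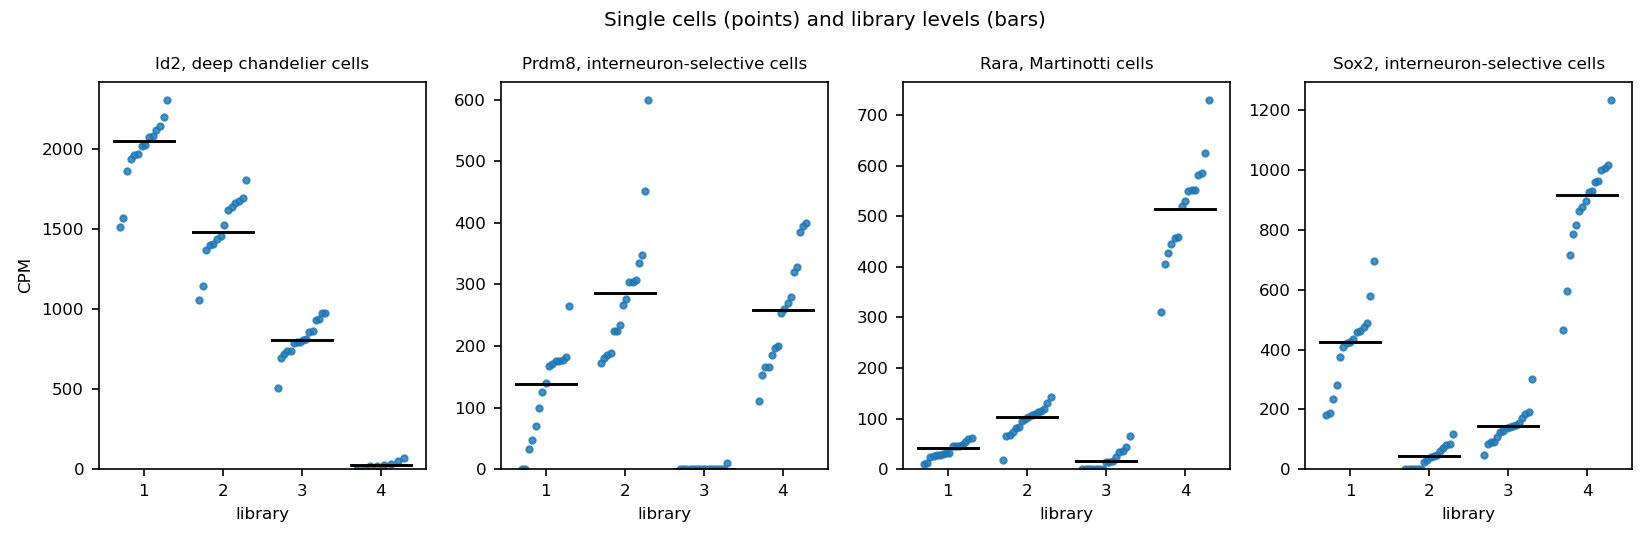
Single cells (points, sorted within each library) and library levels (bars) of 4 genes in the type where each was highest, in CPM on linear axes that differ between panels. In 4 panels the cells lie close to the bar of their library and the bars lie apart: Id2 at 2053 to 23.6 CPM, Prdm8 at 285 to 0.916 CPM, Rara at 516 to 17.0 CPM and Sox2 at 916 to 44.6 CPM.

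Shares of cells with a count were compared after thinning each cell to 20000 counts, which left out shallower cells. Prdm8 then had a count in 36 of 54 interneuron-selective cells (66.7%, exact 95% interval 52.5 to 78.9%) and 31 of 64 CCK basket cells (48.4%, 35.8 to 61.3%), against 0 of 46 deep chandelier cells (up to 7.71%). Without thinning the shares were 73.0%, 76.6% and 0%, at median depths of 42258, 155732 and 86145 counts. Hopx had a count in 48 of 58 thinned Martinotti cells (82.8%, 70.6 to 91.4%) and in 1 of 72 upper chandelier cells (1.39%, 0.0352 to 7.50%). Unthinned these were 95.2% and 7.50%, at median depths of 107782 and 62608 counts. Id2 had a count in 41 of 46 thinned deep chandelier cells (89.1%, 76.4 to 96.4%), in 57 of 64 CCK basket cells (89.1%, 78.8 to 95.5%) and in 0 of 58 Martinotti cells (up to 6.16%). At these levels most thinned cells are bound to have a count, so the shares of deep chandelier and CCK basket cells cannot show whether the types differ. Tox3 had a count in 45 of 46 deep chandelier, 107 of 131 long-projecting and 0 of 64 CCK basket cells after thinning. These intervals cover counting error only, since cells of a library are not independent.

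Among themselves the genes fell into loose groups over the 16 replicates. On the log2(CPM + 1) scale the highest r was between Mycn and Tox3 at 0.77, followed by Rara and Hopx at 0.74 and Trps1 and Mycn at 0.71. The lowest was between Tox3 and Prdm8 at -0.82, with Mycn and Prdm8 at -0.60. Over the 46 libraries these became 0.50, 0.41, 0.39, -0.50 and -0.40 in the same order, and the ranking changed: Trps1 with Tox3, at 0.56, and Trps1 with Id2, at 0.53, were then above Mycn with Tox3, and Id2 with Sox2, at -0.53, was the lowest. These pairs share libraries, depth and types, and are a description of how the type patterns resemble each other.

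The genes whose pattern was most like that of each were taken from 6836 genes with at least 50 CPM in some type, by r over the 16 replicates. Tox3 and Lhx6, a LIM-homeodomain factor of interneurons from the medial ganglionic eminence, had the highest value of all, 0.98, and 0.95 over 46 libraries. For Tox3, Nxph1 followed at 0.94. For Id2 the most alike were Ogt at 0.96, which encodes the enzyme that adds N-acetylglucosamine to nuclear and cytoplasmic proteins, and Nol4 at 0.92. Trps1 was most like Cadps at 0.94, a factor for the release of dense-core vesicles, and Phtf2 at 0.93. Mycn was most like Astn2 at 0.92 and Prdm8 most like Rnd1 also at 0.92. Values were lower for Rara with Unc13c at 0.88, Hopx with Aggf1 at 0.87, and Sox2 with Fmnl2 at 0.85. Over the 46 libraries r was lower in these pairs, for example 0.39 for Hopx and Aggf1, 0.53 for Mycn and Astn2, 0.59 for Rara and Unc13c, 0.63 for Prdm8 and Rnd1 and 0.66 for Sox2 and Fmnl2. Sox15 and Max, relatives of Sox2 and a partner of Mycn, came next for Hopx at 0.86 and 0.84.

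Relatives and partners of these regulators were counted from 9 lists with 85 genes: Id and E proteins, the Myc network, the Tox, Prdm and Sox families, retinoid receptors and handling, their cofactors, GATA-type zinc fingers and partners of Hopx. Of these, 66 passed the filter on low counts. Every type was set against the average of the remaining 6 by edgeR's quasi-likelihood test, adjusted over all 15533 genes tested, so these comparisons share samples. Long-projecting cells had most calls, with 11 relatives higher (16.7%, against 9.71% of all genes) and 4 lower (6.06%, against 3.4%). Their median log2 fold change was nonetheless -0.07, against 0.10 over all genes. CCK basket cells had 9 higher (13.6%, against 5.22%) and 2 lower (3.03%, against 1.08%), with a median of 0.23 against 0.04. Martinotti cells had 5 higher (7.58%, against 3.91%) and 1 lower (1.52%, against 1.69%), with a median of 0.13 against 0.01. In interneuron-selective cells 4 were higher (6.06%, against 5.73%) and 4 lower (6.06%, against 4.29%), with a median of 0.16 against -0.03. In deep chandelier cells the shares were below those of all genes, with 5 higher (7.58%, against 12.3%) and 4 lower (6.06%, against 6.79%), and a median of -0.17 against -0.08. PV basket cells had 1 higher (1.52%, against 2.78%) and 1 lower (1.52%, against 1.11%), with a median of -0.02 against 0.09. In upper chandelier cells edgeR called 0 of 66 (1.56% of all genes higher and 0.341% lower), with 5 at an unadjusted p under 0.05 and 1 called by DESeq2, and the median was -0.15 against 0.05. A joint test of any difference between types called 22 relatives, against 25% of all genes.

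**Figure D4:**
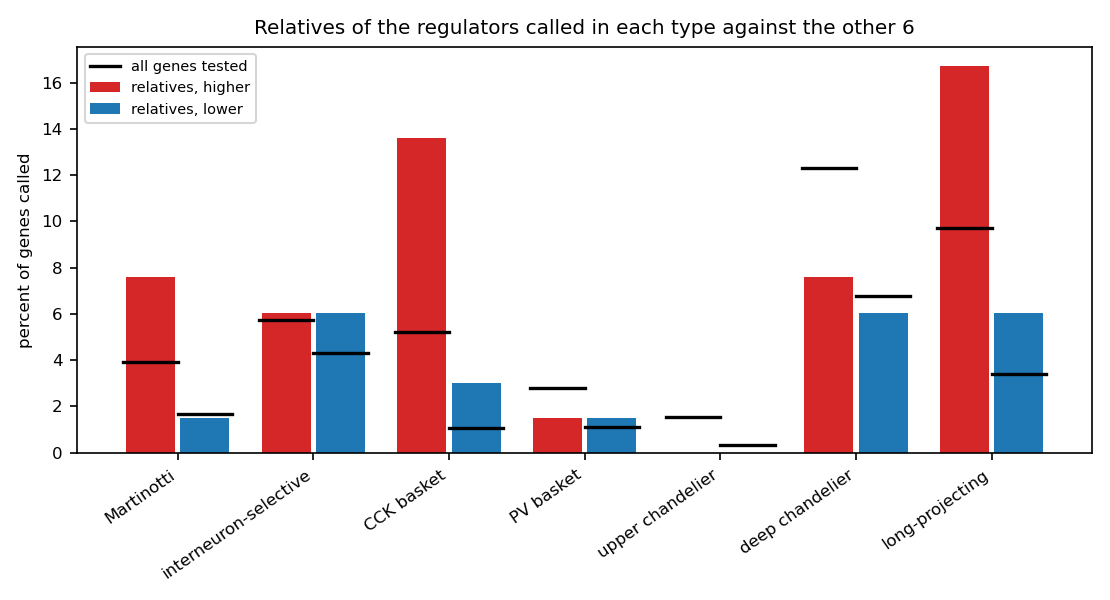
Percent of the 66 tested relatives called higher (red) or lower (blue) in each type against the mean of the other 6, with the percent of all 15533 tested genes as black lines. The red bars of long-projecting (16.7%) and CCK basket cells (13.6%) stand above their lines at 9.71% and 5.22%, and those of deep chandelier cells (7.58%) below theirs at 12.3%.

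Among the partners of Id2 and Mycn, Tcf4, an E protein that Id2 can capture, was called in 5 types. It was at 3829 ± 119 CPM (SD, n = 2) in CCK basket cells, a log2 fold change of 1.04 ± 0.12 (SE, adjusted p = 0.00023), and at 3050 ± 3.44 CPM (SD, n = 2) in deep chandelier cells, where the change was 0.82 ± 0.12. These are the 2 types with most Id2, but no other gene of the 6 in the list of Id and E proteins was called in either. The median log2 fold change of that list was 0.75 in CCK basket and -0.17 in deep chandelier cells, against 0.04 and -0.08 over all genes. Tcf4 was lowest in long-projecting cells at 1016 ± 108 CPM (SD, n = 4), lower by 1.18 ± 0.11 on the log2 scale (adjusted p = 5.6e-06), and these 3 calls held in all 23 alternatives. It was also lower in PV basket cells, by 0.64, a call lost without either replicate, and in Martinotti cells, by 0.49, a call lost in 15 of 23 alternatives. Id3 averaged 76.4 ± 20.0 CPM (SD, n = 2) in interneuron-selective cells against 7.59 CPM over the other types (adjusted p = 0.028), and the call was lost in 5 alternatives, among them without the 4 named libraries. Max, the partner of Mycn, was higher in Martinotti cells at 137 ± 2.87 CPM (SD, n = 2), by 1.46 ± 0.37, and lower in deep chandelier cells, where Mycn was highest, at 20.0 ± 14.6 CPM (SD, n = 2). The latter call was lost in 17 of 23 alternatives and the former in 9. Mxd3, which competes with Myc proteins for Max, was higher in long-projecting cells at 130 ± 6.33 CPM (SD, n = 4), by 1.05 ± 0.21, in every alternative. Mxd1 in CCK basket cells (110 ± 70.1 CPM, SD, n = 2, adjusted p = 0.025) lost its call without animal 6 or either PV basket replicate. Mlxip in deep chandelier cells (62.5 ± 42.6 CPM, SD, n = 2, adjusted p = 0.020) lost it without animal 12 or without the 4 named libraries. Its highest deep chandelier library was the named library 4, at 198 CPM.

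Tox, the founding relative of Tox3, had another order. It was at 366 ± 40.1 CPM (SD, n = 2) in Martinotti cells against 53.0 CPM over the other types, higher by 4.08 ± 0.48 on the log2 scale (adjusted p = 0.00020). It was also higher in deep chandelier cells at 139 ± 15.0 CPM (SD, n = 2) and in long-projecting cells at 101 ± 49.3 CPM (SD, n = 4). The deep chandelier libraries ranged from 0.549 CPM, in the named library 4, to 242 CPM. In interneuron-selective cells, where Tox3 had 5 counts, Tox had 4, at 1.36 ± 0.429 CPM (SD, n = 2), and was called lower. The call in interneuron-selective cells was lost without animal 4, and that in deep chandelier cells with the library number as replicate block, where the adjusted p was 0.072. Of 10 Prdm relatives tested, 1 was called higher and 1 lower in interneuron-selective cells (5.73% and 4.29% of all genes). In CCK basket cells 1 was higher (5.22% of all genes), and no other type had a call. None of the genes called in either type reached 50 CPM. The joint test called 1 of the 10, against 25% of all genes.

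In the Sox family 12 of 18 relatives were tested, with 3 higher and 2 lower in CCK basket cells (5.22% and 1.08% of all genes) and 3 higher and 1 lower in long-projecting cells (9.71% and 3.4% of all genes). Sox5, a factor without an activation domain, was higher in CCK basket cells, where it averaged 199 ± 117 CPM (SD, n = 2), a call lost without animal 6 and without the 4 named libraries. It was lower in long-projecting cells at 10.9 ± 5.52 CPM (SD, n = 4), by 2.76 ± 0.55 on the log2 scale, in every alternative. Sox1, which with Sox2 and Sox3 forms a subgroup of the family, was higher in long-projecting cells at 105 ± 15.4 CPM (SD, n = 4), by 1.72 ± 0.44, and lower in CCK basket cells (6.80 ± 0.744 CPM, SD, n = 2), by 2.91 ± 0.80. The call in CCK basket cells was lost in 12 of 23 alternatives and that in long-projecting cells without animal 15, 16 or 18. Sox3, the other member of that subgroup, was at 83.8 ± 118 CPM (SD, n = 2) in CCK basket cells, with animal 5 at 0.157 and animal 6 at 167 CPM. Its direction turned in 3 of 23 alternatives, among them without animal 6. The call in CCK basket cells was lost there, with DESeq2, and over libraries with and without a block. In interneuron-selective cells Sox3 averaged 19.0 ± 20.9 CPM (SD, n = 2), with animals at 4.15 and 33.8 CPM. Libraries of that type ranged from 0 to 58.6 CPM, the highest being the named library 3. This call was lost in 11 alternatives, among them without the 4 named libraries. Sox15 in Martinotti cells, at 347 ± 366 CPM (SD, n = 2), lost its call without animal 2. Sox6, which was named after its values were seen, was called in 6 types. It was highest in long-projecting cells at 479 ± 66.1 CPM (SD, n = 4), by 2.21 ± 0.19, and lowest in CCK basket cells (26.9 ± 1.48 CPM, SD, n = 2), lower by 2.64 ± 0.34, and both calls held in all 23 alternatives.

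Around Rara, 13 genes of receptors and retinoid handling and 6 cofactors were tested. None of the 13 was called in Martinotti cells, the type with most Rara, where 3.91% of all genes were called higher and 1.69% lower. In long-projecting cells 4 of the 13 were higher, against 9.71% of all genes, and in CCK basket cells 2, against 5.22%. Of the cofactors, Nrip1 was higher in Martinotti cells at 65.9 ± 7.82 CPM (SD, n = 2), by 1.66 ± 0.39, a call lost without animal 1 or 2 and with the replicate block. The corepressor Ncor1 was higher in deep chandelier cells at 264 ± 1.79 CPM (SD, n = 2), by 1.21 ± 0.22, in every alternative. It was lower in interneuron-selective cells (89.9 ± 1.49 CPM, SD, n = 2), a call lost without animal 3 or 4. The coactivators Ncoa1 and Ncoa2 were lower in long-projecting cells, by 1.22 ± 0.17 and 1.23 ± 0.27 on the log2 scale, in every alternative, and Ncoa1 was higher in deep chandelier cells by 0.81 ± 0.19, a call lost without animal 12. Among GATA-type genes, of which 3 of 8 were tested beside Trps1, Zfpm2, a cofactor of GATA proteins, was called higher in CCK basket and lower in deep chandelier cells. Its CCK basket animals were at 16.5 and 133 CPM and its direction turned without animal 5, and the deep chandelier call was lost in 10 alternatives. Srf and Hdac2, the 2 partners of Hopx tested, were called in no type.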

How the data were processed

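RNA of 584 single neurons was counted in 46 libraries. Per the submitters' processing notes the authors used Bowtie 0.12.7 and mm9, and the deposited table holds their expected counts per gene and cell. Of values above 0, 4.07% were not whole within 1e-06. Whether reads or molecular tags were counted, and whether strand was used, these sources do not say.

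The members and lists were chosen with earlier results of these data known. Counts were summed per library and replicate, divided by their total for CPM, and put on the log2(CPM + 1) scale (pseudocount 1) for gaps and correlations. For tests, sums over 16 replicates were rounded and fitted in R 4.3.3 with edgeR 4.0.16 (TMM scaling, filterByExpr by type, robust quasi-likelihood test, Benjamini-Hochberg adjustment over 15533 genes, threshold 0.05, residual degrees of freedom 9). The common dispersion of 0.381 is a coefficient of variation of 61.7%. The script was tested on simulated data with 200 genes changed in upper chandelier cells. It recovered 45% of 4-fold and 99% of 16-fold changes, with 7 false calls, so smaller differences in that type can be missed. DESeq2 1.42.0 was an alternative, beside other scalings, no filter, 18 labelled animals, libraries with and without a block, pseudocounts of 0.1 and 10, and leaving out each replicate. Leaving out 4 libraries that stand apart was added after the data were seen.

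A list's genes were named, up to 4 per list, if the adjusted p was under 0.05 in some type and the highest type mean at least 50 CPM, by size of the log2 fold change, and 3 genes most like each member by r, leaving out unnamed gene models. Results for 1 gene of the lists are not reported here by name. Replicates are separate labelled animals, but labels give 18 animals and the series description 4, so p-values may measure technical spread. Fitted log2 fold changes are given in the results only for genes with counts in every type. Floors are 3 counts over a type. Gene positions and windows are those of GRCm38, which is not the build of the counts, and were used only to describe genes.

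Numbers in library titles did not pair samples: deviations of same-numbered libraries correlated at a median of -0.0028 over 91 pairs, with 0 above 0.1.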

Additional observations from a re-analysis of the deposited data

Results flagged for a closer look

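For a sample far from the others, 53 groups of 4 to 10 libraries or animals were examined, and 8 flags were found. No rate given by chance can be set beside them. Where only 1 library of a group has counts, a flag is certain, and long-projecting cells were examined both as libraries and as animals. Mycn was at 33.6 CPM in interneuron-selective library 4, against 0 to 3.77 CPM in the others. Prdm8 was at 10.4 CPM in Martinotti library 1 and at 1.09 CPM, a single count, in upper chandelier library 3, and at 0 in the other libraries of both types. Rara was at 24.8 CPM in CCK basket library 2, against 0.888 to 3.57 CPM. In long-projecting cells Rara was at 10.3 CPM in library 6, against 0.755 to 2.73 CPM, and at 6.24 CPM in animal 17, the highest of 4 animals. Hopx was at 0 CPM in deep chandelier library 4, the library with Vip, where the others had 0.688 to 0.766 CPM, a difference of single counts. Sox2 was at 203 CPM in long-projecting animal 17, the lowest of 4 animals.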

How the results depend on the processing

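The type with the larger gap to its neighbour was upper chandelier for Trps1, deep chandelier for Id2 and interneuron-selective for Prdm8. It was Martinotti for Rara and Hopx, and CCK basket for Mycn, Tox3 and Sox2. For each gene that type stayed at its end under every scaling, summary and pseudocount run, and without the 4 named libraries. It also stayed there without its own highest library. For Mycn, Tox3 and Sox2 that step could not turn the order, because CCK basket cells were the lowest type. Among single replicates left out, only animal 6 turned it, for Sox2 (-0.010, up to 1.67 without animal 5). The other end was not run. The log2 gap of Trps1 became 0.32 with TMM and 0.21 with DESeq2 scaling. With pseudocounts of 0.1 and 10 it was 5.99 and 0.70 for Mycn and 2.61 and 0.18 for Tox3, which was 1.75 without the 4 named libraries.

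Of called relatives, 6 in Martinotti cells became 10 with 18 labelled animals and 11 over libraries, for interneuron-selective cells 8 became 13 and 15, for PV basket cells 2 became 14 and 26, and for deep chandelier cells 9 became 15 and 22. Libraries gave 25 in place of 15 for long-projecting cells. The joint count of 22 became 35 and 47. The relatives tested numbered 66 as reported, 68 with 18 animals, 61 over libraries and 80 with DESeq2 or no filter. Shares over all genes were not worked out for any alternative, also those that leave out a replicate. Changes in these counts are therefore not a result about the relatives. DESeq2 called 5 in PV basket, 1 in upper chandelier and 18 in deep chandelier cells and 38 jointly. Upper chandelier cells, with 0, had 2 with no filter, 2 with 18 animals, 1 over libraries and 1 without the 4 named libraries. With the library number as replicate block the counts over libraries were 8, 10, 9, 10, 0, 12 and 18 from Martinotti to long-projecting cells in the order of the plots, and 30 jointly.

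Leaving out 1 replicate gave 3 to 11 calls in Martinotti, 0 to 11 in interneuron-selective, 6 to 13 in CCK basket, 0 to 5 in PV basket, 0 to 1 in upper chandelier, 5 to 13 in deep chandelier and 10 to 19 in long-projecting cells, and 15 to 25 jointly. The lowest counts came without animal 2, animal 4, animal 6 or 7 with 8, either PV basket replicate, animal 15 for long-projecting cells, and several single animals for the rest. Where it left 1 replicate in a type, that replicate was taken to vary like those of other types. In CCK basket cells the log2 fold change of Zfpm2 ranged from -0.25 without animal 5 to 2.74, and that of Sox3 from -0.29 without animal 6 to 9.59, which is no bound because some types have no count of this gene. The cause was not tested. With n = 2 in 6 of 7 types, levels near 3 counts and folds of single relatives are the least certain.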
